A study of Homo sapiens with 45 samples.

Results

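The arrays described here carry RNA from A375 cells, an established human melanoma line, transfected with an siRNA pool against CDKN2C, which encodes the cyclin-dependent kinase inhibitor p18, or against RBL2, which encodes the pocket protein p130. They are 2 of the 45 arrays of the series, and were chosen by the siRNA target given in the sample labels. Each was set against the median of the 21 other arrays of the study's second experimental batch, called KD2, in which cells received siRNA pools against 21 other targets. All 23 KD2 cultures were of the same line and were harvested 48 hours after transfection with Oligofectamine. The series also holds 16 arrays of targeting siRNAs from batches KD1 and KD3, 3 arrays of a control siRNA, fluorescent and inactive, and 3 of untreated cells, the last 6 with no batch given. Each targeting siRNA was a Dharmacon SMARTpool, a mixture of several siRNAs against 1 mRNA, used in 1 culture with 1 array, so that effects of a pool on mRNAs other than its target cannot be told apart from those of the knockdown. The sample labels and the methods state different siRNA concentrations. With 1 array per siRNA no difference in a single gene has a replicate check, and no p-value across genes is given.

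p18 belongs to the INK4 family of proteins, which bind CDK4 and CDK6 and hold back their activation by D cyclins. Active CDK4 and CDK6 phosphorylate the pocket proteins pRB, p107 and p130, and p18 therefore acts upstream of them. Unphosphorylated p130 binds E2F4 or E2F5 and, with the MuvB core proteins, forms the DREAM complex, which represses cell cycle genes in resting cells. DREAM reaches genes of DNA replication mostly through E2F sites, and genes of the G2 phase and mitosis mostly through the cell cycle genes homology region, or CHR element. Losing p18 or p130 removes a brake on the same pathway at different levels.

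The deposited intensities were analysed as log2 values, and a gene was counted as above noise where its median over all arrays reached 8.59, which is 1.5 times the signal of the spiked-in BioB control, and this left 4800 of 19775 named genes. A gene was called higher or lower where it differed by 1.5-fold or more from the median of the 21 other KD2 arrays and also lay outside the range of all 21. The whole array was not shifted far by either siRNA. Over the 4800 genes the median log2 difference was -0.01 after CDKN2C siRNA, with 48.7% of genes higher, and 0.03 after RBL2 siRNA, with 61.5% higher. The spread of these differences, as an SD over genes, was 0.168 after CDKN2C siRNA, placed 4 from the top of the 23 KD2 arrays, and 0.108 after RBL2 siRNA, placed 21. Without the range rule, 26 genes passed 1.5-fold after CDKN2C siRNA and 5 after RBL2 siRNA, against 1 to 85 (median 12) in the 21 other arrays. The CDKN2C array thus stood among the more divergent ones of its batch, and the RBL2 array among the least divergent.

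Of the melanocyte markers, 3 of 8 measured were above noise (MITF, SOX10 and S100B). The log2 of the summed intensities of all 8 was 12.02 after CDKN2C siRNA, just above the highest of the other arrays. After RBL2 siRNA it was 11.93, within the range of the other arrays, whose lowest value was 11.73. The pigment genes TYR and PMEL lay below noise. HLA-DRA was the single one of 16 leukocyte markers above noise, KRT10 and KRT18 were so among 13 epithelial markers, and none of 10 endothelial and 10 fibroblast markers was. The 3' less 5' difference of the actin control probe sets, a sign of RNA quality, was 1.17 after CDKN2C siRNA and 1.56 after RBL2 siRNA, against 1.09 to 2.08 in the other arrays. Control siRNA array 3 was nearly identical to untreated array 3, with 95.4% of their probe sets less than 10% apart (no other pair of arrays exceeded 59.9%), so averages over the control siRNA arrays are also given without array 3.

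RBL2 was measured by a pair of probe sets, and both were lowest in the array of its own siRNA. Probe set 212331_at, the brighter one, stood at 7.68 after RBL2 siRNA, against a lowest value of 8.52, a median of 8.78 and a highest of 9.12 in the 21 other KD2 arrays, whose values are given in this order throughout. It was thus below all 21, by 1.09 on the log2 scale, or 2.14-fold (exact rank test, one-sided, p = 0.0455, the smallest that 22 arrays allow). With 1 array of this siRNA the p says only that its rank was the lowest, and does not measure the spread between cultures. The study chose siRNAs able to lower their target mRNA by 2-fold or more. A low rank of RBL2 in this array thus followed in part from that choice. Probe set 212332_at, which lies below the noise limit, stood at 6.19 after RBL2 siRNA, against 7.25, 7.58 and 7.69, a log2 difference of -1.39. The value was also below the 3 control siRNA arrays, in which 212331_at stood at 8.31, 8.63 and 9.05. The difference from their mean was -0.98, and -0.79 without control siRNA array 3.

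**Figure D1:**
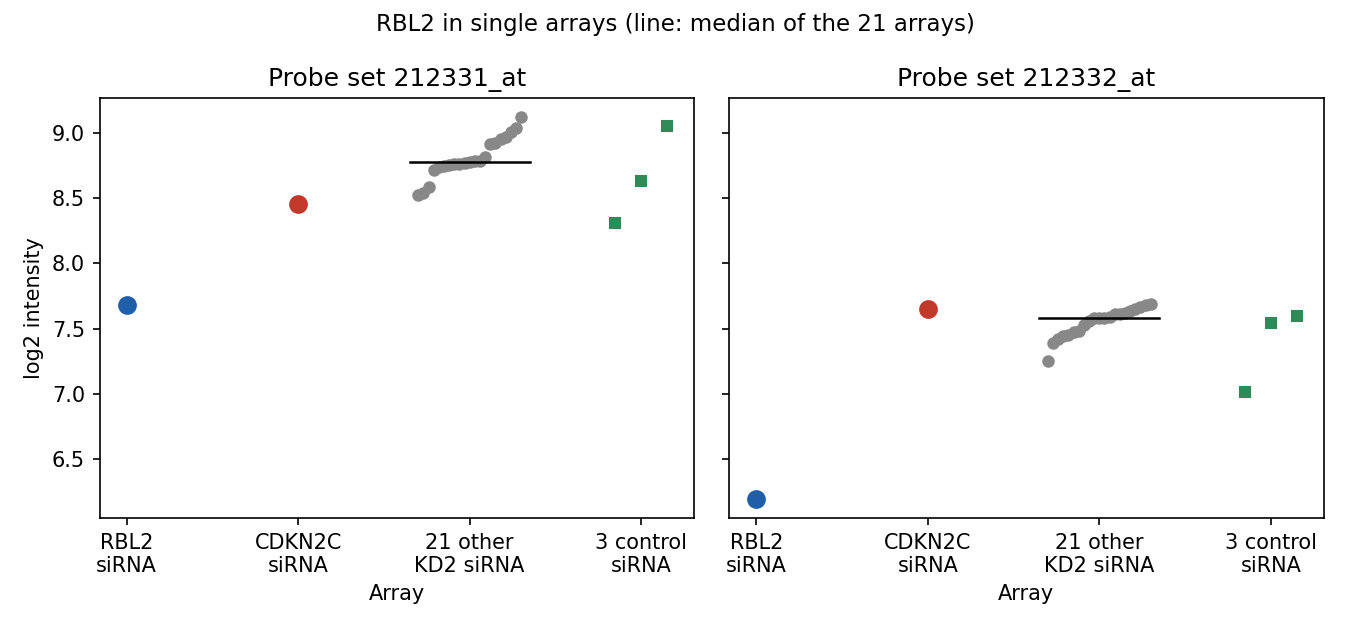
log2 intensity (vertical axis) of the 2 RBL2 probe sets in the RBL2 siRNA array, the CDKN2C siRNA array, the 21 other KD2 arrays and the 3 control siRNA arrays, 1 point per array, with a line at the median of the 21. Both probe sets are lowest after RBL2 siRNA, at 7.68 and 6.19.

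RBL2 also entered the comparison of the other siRNA. After CDKN2C siRNA probe set 212331_at stood at 8.45, below all 21 other KD2 arrays (8.52, 8.78 and 9.12), a log2 difference of -0.33. Probe set 212332_at did not share this, at 7.65 against 7.25, 7.58 and 7.69, a difference of 0.07. The 2 probe sets therefore disagree on RBL2 after CDKN2C siRNA.

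The target of the CDKN2C siRNA could not be checked by name, since no probe set carries the name CDKN2C in the annotation used here. Of 404 probe sets above noise that have no gene name, the one with the largest fall in the CDKN2C array was 204159_at. It stood at 8.64 after CDKN2C siRNA, against 9.63, 9.84 and 10.15 in the 21 other KD2 arrays, a log2 difference of -1.20, while in the RBL2 array it stood at 10.12. Probe set 211792_s_at was next, at 7.97 after CDKN2C siRNA, against 8.46, 8.78 and 9.01 (-0.81). The files used here thus give no check by name of the target of this array.

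By the 1.5-fold and range rule 1 gene was higher (0.0208% of 4800) and 18 were lower (0.375%) after CDKN2C siRNA. This imbalance depended on the baseline. Against the 3 control siRNA arrays 16 genes were higher and 17 lower, without control siRNA array 3 they were 9 and 12, and by range alone 334 genes (6.96%) lay above and 309 (6.44%) below all 21 other KD2 arrays. The gene that was higher is EFNB2, which encodes ephrin-B2, a membrane-bound ligand of Eph receptors. EFNB2 stood at 10.02 after CDKN2C siRNA, against 8.93, 9.26 and 9.67 (lowest, median and highest) in the 21 other KD2 arrays, a log2 difference of 0.76. Both of its probe sets gave this, at 0.73 and 0.76. Against control siRNA the call depended on which array was used, since EFNB2 stood at 9.07, 9.11 and 10.28 in control siRNA arrays 1, 2 and 3. Its difference was 0.53 from their mean and 0.93 without control siRNA array 3.

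ITGB8, the integrin beta subunit that pairs with alpha V and activates latent TGF-beta, stood at 9.78 after CDKN2C siRNA, against 10.24, 10.85 and 11.34 in the other arrays. This is a log2 difference of -1.07, or 2.09-fold, but only 3 of its 5 probe sets were lower, the probe sets ranging from -1.07 to 0.25, and the difference was -0.20 by the median over its probe sets and -0.49 against control siRNA (-0.59 without array 3). CLDN12, a claudin, stood at 8.31 after CDKN2C siRNA, against 8.53, 9.23 and 9.57 (-0.92). USP53, a protein of the tight junction, stood at 8.43, against 8.49, 9.23 and 9.66 (-0.80), with a difference of -0.30 from the control siRNA mean (-0.33 without array 3). CD55, the decay-accelerating factor that protects cells from complement, stood at 9.77, against 10.04, 10.62 and 11.27 (-0.86), and all 3 of its probe sets were lower. The margin of USP53 to the lowest other array was narrow. That array, of NMI siRNA, was the lowest of the 21 for 7 of the 18 lower genes, CLDN12, CD55 and USP53 among them.

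OTUD6B, a deubiquitinating enzyme, stood at 7.84 after CDKN2C siRNA, against 8.36, 8.79 and 9.08 in the other arrays (-0.94). DNAJB9, a co-chaperone of the endoplasmic reticulum, stood at 8.02, against 8.31, 8.71 and 9.01 (-0.69), with all 3 probe sets lower. Both genes were also below each of the 3 control siRNA arrays, which lay at 8.25 to 9.01 for OTUD6B and at 8.27 to 9.37 for DNAJB9. C6orf120, C5orf15, PLEKHB2 and PHTF2 were at -0.77, -0.72, -0.70 and -0.69. C5orf15 rests on 1 of its 2 probe sets, since the other was at 0.08. The remaining 8 genes, outside the rule for naming genes and listed after their values were seen, lay between -0.67 and -0.59. They are RANBP9, BICD1, SOX2, DUS1L, SLK, C17orf58, LIN7C and GPN3, among which SOX2 is a stem cell transcription factor, SLK a protein kinase and BICD1 an adaptor of the dynein motor. SOX2 stood at 8.06 after CDKN2C siRNA, against 8.26, 8.73 and 9.34 (-0.66), and all 4 of its probe sets were lower.

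The baseline mattered for these calls. With the 3 control siRNA arrays as baseline 8 of the 18 lower genes stayed called, and 6 of 18 without control siRNA array 3. When a gene's probe sets were summarised by their median, 8 of the 18 stayed called. The noise limit mattered as well, since many of the lower genes stood below it in the CDKN2C array itself. Among them were OTUD6B, CLDN12, USP53, C6orf120, PHTF2, DNAJB9, BICD1, SOX2 and DUS1L, so the size of their falls is imprecise. At 2 times the noise limit 6 of the 18 stayed called.

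**Figure D2:**
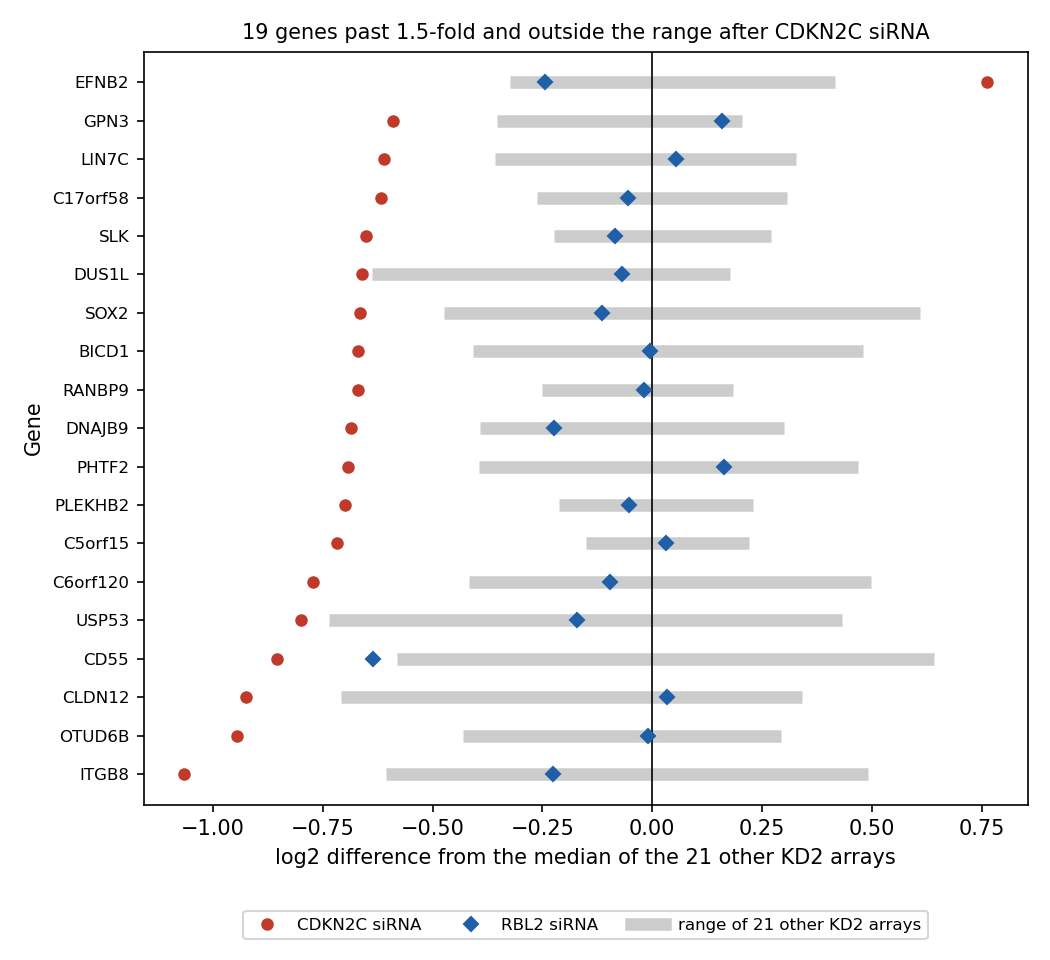
log2 difference (horizontal axis) from the median of the 21 other KD2 arrays for the 19 genes called after CDKN2C siRNA, with circles for the CDKN2C array, diamonds for the RBL2 array and grey bars for the range of the 21 arrays. CDKN2C siRNA lies outside every bar, from -1.07 for ITGB8 to 0.76 for EFNB2, and RBL2 siRNA lies outside its bar for CD55 alone.

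A lower limit of 25% (0.32 on the log2 scale, either way) with the same range rule gave 56 genes higher (1.17%) and 134 lower (2.79%) after CDKN2C siRNA. The genes in this paragraph were chosen after their values were seen. PLK1, a kinase needed at entry into and through mitosis, stood at 8.76 after CDKN2C siRNA, against 7.78, 8.25 and 8.69 in the other arrays (0.51). CDK6, one of the kinases that p18 inhibits, stood at 10.81, against 9.82, 10.44 and 10.78 (0.37), and all 7 of its probe sets were higher, by 0.21 to 0.81. TIAM1, an exchange factor for Rac, NES, the intermediate filament protein nestin, and SPTAN1, a spectrin, were at 0.48, 0.46 and 0.46. On the lower side MET, the receptor of hepatocyte growth factor, was at -0.52, NRP1, a co-receptor for semaphorins and VEGF, at -0.52, and WEE1, the kinase that inhibits CDK1, at -0.46.

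By gene lists, genes of integrins, adherens junctions and the cytoskeleton stood highest in the CDKN2C array. The integrin gene ITGB8, at -1.07 in that array, is not a member of the list. Of the 17 list members above noise 13 were higher, with a median of 0.13, the highest of the 23 KD2 arrays, against -0.09 to 0.12 in the 21 others and -0.01 over all genes. VCL, which encodes vinculin, and ACTB, beta-actin, were above all 21 other arrays (6.96% of all genes were), at 0.28 and 0.18. ITGB3 and TPM1 were at 0.36 and 0.33. ITGA6, an integrin alpha subunit, was at -0.32. The actin control probe sets moved with the list, since both the 3' and the 5' one stood above all 21 other arrays (13.94 against at most 13.84, and 12.77 against at most 12.64), and their part in the result was not tested. Against control siRNA the median was 0.21, and it was -0.03 without control siRNA array 3.

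Heat shock proteins, chaperones that refold damaged proteins, had a median of 0.10 after CDKN2C siRNA, placed 2 from the top of 23, with 9 of 13 members higher, and a median of 0.18 against control siRNA and 0.03 without array 3. HSPB1, DNAJB1 and HSP90AB1 were above all 21 other arrays (6.96% of all genes were), at 0.36, 0.28 and 0.11, and CHORDC1 was at -0.21. In the list of hypoxia and glycolysis the median was 0.00 over 25 genes, and members lay on both sides. The glycolytic genes ALDOC, PKM, GPI, TPI1 and PGAM1 were above all 21 other arrays, at 0.44, 0.29, 0.27, 0.15 and 0.15, and BNIP3 and ANKRD37, both known as hypoxia-induced, were below all 21, at -0.29 and -0.41, beside 6.96% of all genes above and 6.44% below. Of 6 genes of quiescence and FOXO targets, 5 were lower (median -0.20, placed 22 of 23), with KLF4 at -0.67 and TRIB2 at 0.50. Against control siRNA the sign of this list turned, with a median of 0.18 and 4 of 6 genes higher, and of 0.02 and 3 of 6 without array 3. Apoptosis genes had a median of -0.09, placed 21, which was -0.12 against control siRNA and 0.07 without array 3, with the caspase inhibitor XIAP at -0.42 and MCL1, an anti-apoptotic BCL2 relative, at -0.32.

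RBL2 siRNA left most genes within the range of the batch. By the 1.5-fold and range rule no gene was higher (0%) and 2 were lower (0.0417%), RBL2 itself and CD55. CD55 stood at 9.99 after RBL2 siRNA, against 10.04, 10.62 and 11.27 in the 21 other KD2 arrays, a log2 difference of -0.63, and all 3 of its probe sets were lower. It was also below all 21 in the array of CDKN2C siRNA. In control siRNA arrays 1, 2 and 3 CD55 stood at 10.15, 10.15 and 11.62, so that the difference after RBL2 siRNA was -0.16 from arrays 1 and 2 alone, and that after CDKN2C siRNA was -0.38, both short of 1.5-fold.

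At the 25% limit with the range rule 10 genes were higher (0.208%) and 8 lower (0.167%) after RBL2 siRNA. Of the 10 that were higher, 5 belong to the list of G2/M and mitosis, and they are ASPM, a protein of the spindle poles, CENPF, a kinetochore protein, KIF14, a kinesin of cytokinesis, AURKA, the kinase of centrosome maturation, and TACC3, its partner on spindle microtubules. ASPM stood at 10.88 after RBL2 siRNA, against 10.05, 10.41 and 10.75 (0.47). CENPF stood at 10.82, against 9.98, 10.36 and 10.67 (0.47), and KIF14 at 9.68, against 8.66, 9.21 and 9.55 (0.47). These 3 genes lay above all 21 other KD2 arrays, and above the 3 control siRNA arrays, of which the highest was at 10.47 for ASPM, 10.51 for CENPF and 9.64 for KIF14. AURKA and TACC3 were at 0.33 and 0.32, and AURKA, at 10.57, lay below control siRNA array 3 (10.79) and had 1 of its 3 probe sets at -0.02. DEPDC1 and FAM83D, which are also known to act in mitosis, were at 0.41 and 0.39. The other 3 genes are NFATC2, a transcription factor (0.46), MITF, the melanocyte lineage factor (0.33), and CTC-338M12.4, a transcript of no known role here (0.37). The 8 lower genes include, beside RBL2 and CD55, VDAC1, a channel of the mitochondrial outer membrane (-0.55), NRP1 (-0.50), LTBP3, which binds latent TGF-beta (-0.43), ZNF721 (-0.40), CDK13 (-0.40) and GRB2, an adaptor of receptor tyrosine kinases (-0.36).

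G2/M and mitosis genes stood together above the batch median after RBL2 siRNA. All 45 list members above noise, of 58 in the list, were higher, with a median of 0.23 and a range of 0.04 to 0.47, beside 61.5% of all genes higher and a median of 0.03 over all genes. Of the 45, 5 were called at the 25% limit (background 0.208%) and 6 lay above all 21 other arrays (2.73% of all genes did), the further one being KIF11, a kinesin of the bipolar spindle. The proliferation marker MKI67 stood at 9.86 after RBL2 siRNA, against 8.79, 9.44 and 9.89 (0.42), and TTK, a kinase of the spindle checkpoint, was at 0.34. CDK1, the kinase that drives entry into mitosis, was at 0.31 and its partner CCNB1 at 0.26. At the low end were PLK1 at 0.10, PTTG1 at 0.08 and CDC25B at 0.04. In these bulk cultures, more cells in G2 or mitosis and more RNA of these genes per cell cannot be told apart.

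**Figure D3:**
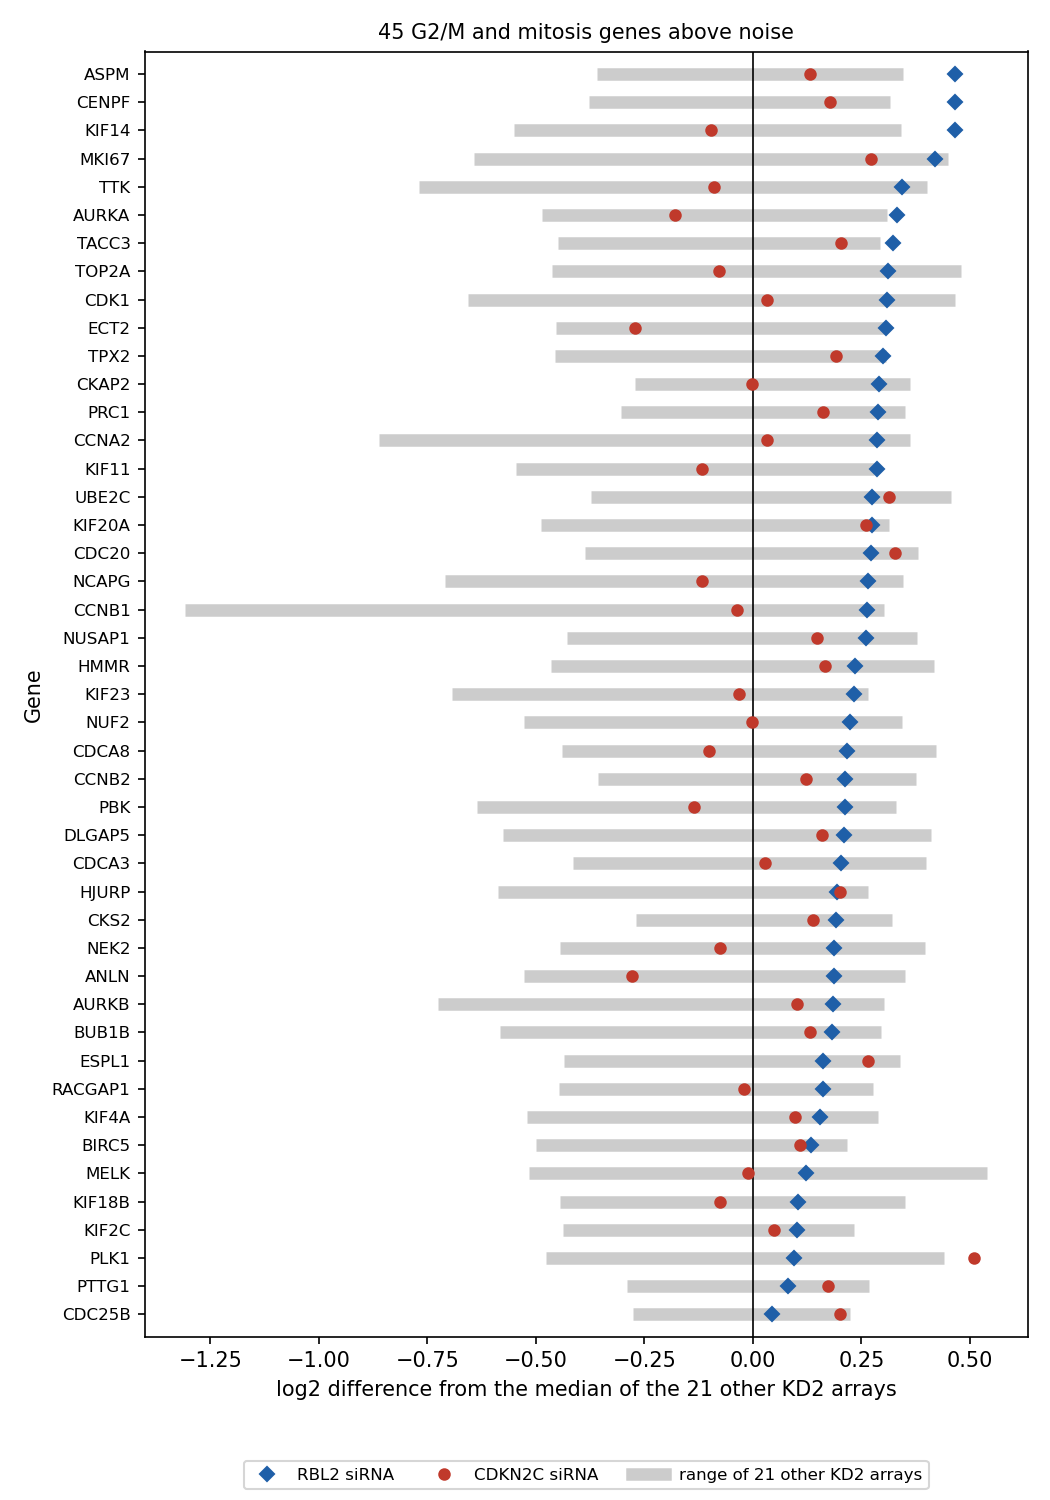
log2 difference (horizontal axis) from the median of the 21 other KD2 arrays for the 45 G2/M and mitosis genes above noise, with diamonds for RBL2 siRNA, circles for CDKN2C siRNA and grey bars for the range of the 21 arrays. All diamonds lie right of 0, from 0.04 for CDC25B to 0.47 for ASPM, and 6 of them lie beyond the bars.

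This list median was not beyond those of other siRNAs. It was placed 4 of the 23 KD2 arrays, below those of CCNB1, AKT1 and CEBPD siRNA (0.29, 0.24 and 0.24), and the 21 other medians ran from -0.46 to 0.29. No other KD2 array had all 45 genes on the higher side, but several came close. In the arrays of AKT1, CCNB1, CDC37 and PIK3CB siRNA 44 were higher, and in those of CEBPD and RELA siRNA 43. CCNB1, the target of 1 of these siRNAs, is itself a list member and was lowest in its own array. Set against the 3 control siRNA arrays, averaged, the median after RBL2 siRNA was 0.13, with 31 of 45 genes higher. Without array 3 it was 0.18, with 36 of 45 higher. Against control siRNA arrays 1, 2 and 3 singly it was 0.09, 0.27 and 0.06.

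The replication list, which also holds genes of the G1/S transition, showed a smaller difference of the same sign after RBL2 siRNA. Of 32 members above noise 31 were higher, with a median of 0.15, placed 7 of 23, and none was called at the 25% limit. PRIM1, a subunit of primase, was at 0.35, DTL, a subunit of a replication-coupled ubiquitin ligase, at 0.31 and MCM6, a subunit of the replicative helicase, at 0.27. MCM6 was the single member above all 21 other arrays, a share close to the 2.73% of all genes, and ORC6, of the origin recognition complex, the single one lower (-0.07). Against control siRNA the median was 0.34, and 0.14 without control siRNA array 3.

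After CDKN2C siRNA both lists lay closer to the batch median. Of the 45 G2/M and mitosis genes 27 were higher, with a median of 0.10 (placed 9 of 23), and of the 32 replication genes 21 were, with a median of 0.08 (placed 10). PLK1 was at 0.51, CDC20, the activator of the anaphase-promoting complex, at 0.33 and MCM2, of the replicative helicase, at 0.37, while ANLN and ECT2, both of cytokinesis, were at -0.28 and -0.27. With the averaged control siRNA arrays as baseline the G2/M median was -0.01, with 22 of 45 genes higher with or without control siRNA array 3, so the list did not stand above that baseline. The replication median was then 0.30, or 0.11 without control siRNA array 3. The medians for siRNAs against other cell cycle genes of KD2 are given side by side. Each was set against the same 21 arrays with its own array left out. For CDK4 siRNA the G2/M median was -0.04 and the replication median -0.04, and for CCND3 siRNA, against a D cyclin, they were -0.30 and -0.21, with 0 of 45 and 0 of 32 genes higher. For FOXM1 siRNA they were -0.05 and -0.02, and for CCNA2 siRNA, against the A cyclin of S phase, 0.11 and 0.27. RB1 siRNA belongs to another batch and, set against its own batch KD1, gave medians of 0.31 and 0.37.

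**Figure D4:**
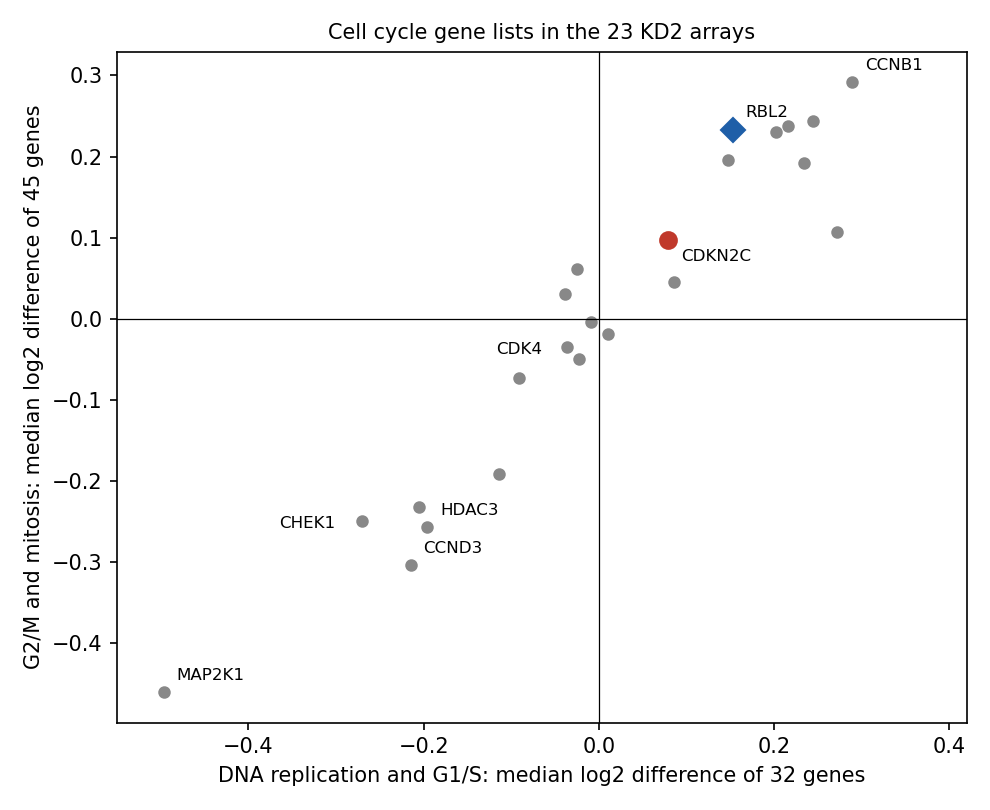
For each of the 23 KD2 arrays, the horizontal axis gives the median log2 difference of the 32 replication genes. The vertical axis gives that of the 45 G2/M genes. The baseline is the KD2 arrays that received neither CDKN2C nor RBL2 siRNA, with the array in question left out. RBL2 siRNA (diamond) lies at 0.15 and 0.23, CDKN2C siRNA at 0.08 and 0.10, and the arrays as a whole run along a diagonal that ends at MAP2K1 siRNA on the low side and CCNB1 siRNA on the high side.

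The promoters of the 4 G2/M genes with the largest differences after RBL2 siRNA are shown because CHR elements and E2F sites are where DREAM is known to bind. Each is 250 bases before to 50 bases after the gene's start, in the direction of transcription, from RefSeq (GRCh38.p14), with CHR elements in capitals. They lie at chr1:197146620-197146919 (minus strand, ASPM), chr1:214602945-214603244 (plus strand, CENPF), chr1:200620702-200621001 (minus strand, KIF14) and chr10:128126374-128126673 (minus strand, MKI67).
ASPM: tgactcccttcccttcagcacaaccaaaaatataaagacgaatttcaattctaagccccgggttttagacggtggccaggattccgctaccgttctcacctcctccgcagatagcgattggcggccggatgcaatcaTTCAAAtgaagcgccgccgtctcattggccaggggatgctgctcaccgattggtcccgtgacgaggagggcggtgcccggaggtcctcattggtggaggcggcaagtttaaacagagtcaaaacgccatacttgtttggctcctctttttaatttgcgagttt
CENPF: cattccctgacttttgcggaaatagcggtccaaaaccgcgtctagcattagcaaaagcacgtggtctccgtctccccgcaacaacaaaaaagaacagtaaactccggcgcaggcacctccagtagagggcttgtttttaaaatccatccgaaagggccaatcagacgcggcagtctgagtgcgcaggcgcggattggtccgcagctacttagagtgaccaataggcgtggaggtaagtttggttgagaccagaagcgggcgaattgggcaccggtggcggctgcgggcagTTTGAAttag
KIF14: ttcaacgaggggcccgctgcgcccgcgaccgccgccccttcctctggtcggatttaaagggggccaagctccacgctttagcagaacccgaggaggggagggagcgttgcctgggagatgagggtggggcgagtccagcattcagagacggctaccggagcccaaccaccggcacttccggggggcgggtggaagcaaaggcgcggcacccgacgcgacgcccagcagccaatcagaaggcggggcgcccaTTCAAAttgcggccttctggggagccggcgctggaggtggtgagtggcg
MKI67: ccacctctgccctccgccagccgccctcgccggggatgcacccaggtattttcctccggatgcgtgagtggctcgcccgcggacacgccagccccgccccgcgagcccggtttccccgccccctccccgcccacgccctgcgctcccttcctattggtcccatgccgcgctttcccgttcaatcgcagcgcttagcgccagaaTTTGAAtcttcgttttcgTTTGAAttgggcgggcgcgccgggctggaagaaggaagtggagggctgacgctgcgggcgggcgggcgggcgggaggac

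The CHR element was searched as TTTGAA or TTCGAA and the E2F site as TTTGGCGC, TTTCGCGC, TTTCCCGC or TTTGCCGC, on both strands, so that TTCAAA is a CHR element of the other strand. None of the 4 promoters holds an E2F site of this form. The CHR element begins 113 bases before the start in ASPM, 47 and 29 bases before it in MKI67, at base 2 in KIF14 and at base 41 in CENPF, counted from 1 at the start. A CHR element was present in 27 of 38 promoters of G2/M and mitosis genes (71.1%), in 2 of 28 of replication genes (7.14%), in 12.1% of the promoters of genes above noise and in 16.6% of all 27305 promoters. For the E2F site the shares were 5.26% (2 of 38), 42.9% (12 of 28), 6.30% and 3.33%. The G2/M genes with a CHR element had a median difference of 0.23 after RBL2 siRNA (27 of 27 higher). Those without one had a median of 0.19 (11 of 11 higher). In the other KD2 arrays these medians ran from -0.48 to 0.32 with the element and from -0.44 to 0.25 without it. Over all genes above noise the medians were 0.04 with a CHR element and 0.02 without one. These also lay within the ranges of the other KD2 arrays (-0.08 to 0.06 and -0.05 to 0.04). Split by the E2F site instead, the medians after RBL2 siRNA over all genes above noise were likewise 0.04 and 0.02. Neither split thus set the RBL2 array apart from the other arrays. A match of letters is a description, not a measured binding site.

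Among the genes of the pathway itself, few moved beyond the batch. The list of CDK inhibitors had 7 of 8 genes measured and 4 above noise, and none was called in either array at the 25% limit. CDKN1B, which encodes p27, was at -0.17 after CDKN2C siRNA and 0.10 after RBL2 siRNA. CDKN1C, which encodes p57, stood at 8.84 after CDKN2C siRNA and 9.25 after RBL2 siRNA, against 8.72, 9.43 and 9.77 in the other arrays, so the first value was low (-0.59) but within their range. The INK4 relatives CDKN2A, CDKN2B and CDKN2D lay below noise. CDKN1A, which encodes p21, was at 0.02 after CDKN2C siRNA and -0.14 after RBL2 siRNA.

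Of the D and E cyclins and their kinases, 6 of 9 were above noise. CDK4, a kinase that p18 inhibits, stood at 12.22 after CDKN2C siRNA, above all 21 other arrays (10.28, 12.03 and 12.11, the lowest being that of CDK4 siRNA), a difference of 0.19, and at 12.10 after RBL2 siRNA (0.07). Together with CDK6 it made 2 of 6 list members above all others after CDKN2C siRNA, beside 6.96% of all genes, and 0 of 6 after RBL2 siRNA, beside 2.73%. CCND1, the main D cyclin of melanoma cells, stood at 9.66 after CDKN2C siRNA and 9.72 after RBL2 siRNA, against 9.17, 10.00 and 10.43 (-0.34 and -0.27), with both probe sets lower in both arrays. CCND3 was at 0.13 and 0.05, and CDC25A, a phosphatase that activates the E cyclin kinase, at -0.03 and 0.05.

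Of the pocket proteins, E2F factors and DREAM subunits, 11 of 21 were above noise. RB1 stood at 9.50 after CDKN2C siRNA and 9.81 after RBL2 siRNA, against 9.34, 9.69 and 10.10. RBL1, which encodes p107, lay below noise, at 6.37 and 6.19, against 6.04, 6.46 and 6.87, so neither array was outside the others for the 2 relatives of p130. E2F4, the partner of p130, was at 0.23 after CDKN2C siRNA and -0.02 after RBL2 siRNA, and E2F3 at -0.36 and 0.09. E2F1, E2F2, E2F7 and E2F8 were below noise. FOXM1 and MYBL2, transcription factors of the G2/M genes, were at 0.26 and 0.26 after CDKN2C siRNA and at 0.15 and 0.18 after RBL2 siRNA, all within the range of the other arrays. DYRK1A, the kinase that starts DREAM assembly, was at -0.03 and 0.08. The median of the list was -0.03 after CDKN2C siRNA and 0.08 after RBL2 siRNA (placed 18 and 4 of 23), and RBL2 was the single member called at the 25% limit in either array.

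Of 15 genes of ERK pathway output 12 were lower after RBL2 siRNA, with a median of -0.12 (placed 19 of 23). DUSP6, a phosphatase of ERK, was at -0.40 and EGR1, an immediate early transcription factor, at -0.31. Against control siRNA arrays 1 and 2 the list median after RBL2 siRNA was -0.01. After CDKN2C siRNA 10 of the 15 genes were higher, with a median of 0.07 (placed 6). Of the inflammatory genes above noise, CXCL8, the neutrophil chemokine interleukin 8, stood at 7.93 after RBL2 siRNA, against 7.76, 8.83 and 12.94 in the other arrays (-0.90), within their very wide range. PMEPA1, which is induced by TGF-beta, was at -0.57 after RBL2 siRNA with 1 other array lower. Ribosome biogenesis genes had a median of 0.07 after RBL2 siRNA (17 of 22 higher), level with that of SP100 siRNA. Genes of cytosolic ribosomal proteins had one of 0.03 (30 of 39 higher), beside 61.5% of all genes higher. After CDKN2C siRNA the medians were 0.01 (12 of 22 higher) and -0.02 (9 of 39 higher), beside 48.7% of all genes higher. p53 targets had a median of 0.02 after RBL2 siRNA and 0.02 after CDKN2C siRNA.

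Few genes passed the limits below after both siRNAs. Both comparisons use the same 21 arrays as baseline, so they are not independent, and the shared count is a description. By the 1.5-fold and range rule CD55 was the single shared gene, and at the 25% limit with that rule the shared genes were CD55, NRP1 and RBL2. RBL2 is the target of 1 of the 2 siRNAs, so its fall there is not a shared response. After CDKN2C siRNA its call rests on probe set 212331_at alone (8.45), which stood lower in control siRNA array 1 (8.31). By the 25% limit alone, a choice added after the data were seen, 77 genes were higher (1.6%) and 210 lower (4.38%) after CDKN2C siRNA, and 17 higher (0.354%) and 31 lower (0.646%) after RBL2 siRNA. None was higher after both (0%) and 10 were lower after both (0.208%). These are 32.3% of the 31, beside 4.38% of all genes lower after CDKN2C siRNA. They are 4.76% of the 210, beside 0.646% of all genes lower after RBL2 siRNA. No gene passed 25% in opposite directions.

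Beside CD55, NRP1 and RBL2 the 10 shared genes are INHBA, the activin A subunit, JAG1, a Notch ligand, TLR4, a Toll-like receptor, TFPI2, a secreted protease inhibitor, SLITRK6, a transmembrane protein, SLC5A3, the inositol transporter, and KLF4, a transcription factor. NRP1 stood at 8.06 after CDKN2C siRNA and 8.08 after RBL2 siRNA, against 8.21, 8.58 and 9.27 in the other arrays, and 8.23, 8.20 and 9.0 in control siRNA arrays 1, 2 and 3. It was thus below all of these, but only 2 of its 4 probe sets were lower in either array. JAG1 stood at 8.13 and 8.18, against 7.88, 8.70 and 9.09, and KLF4 at 7.91 and 8.17, against 7.89, 8.58 and 9.06. Against the 3 control siRNA arrays the other genes were less uniform. JAG1 was 8.07 in control siRNA array 2, SLC5A3 was 9.93 and TLR4 7.89 in array 3, all below both siRNAs. INHBA stood at 10.89 after CDKN2C siRNA, above control siRNA arrays 1 and 2 (10.64 and 10.53), and TFPI2 at 8.83, above array 2 (8.81). INHBA was at -0.33 after CDKN2C siRNA and -0.67 after RBL2 siRNA, and TFPI2 at -0.41 and -0.86.

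Lower levels of most of these genes were also seen with other siRNAs. For 7 of the 10 genes the lowest KD2 array was neither of the 2. In the arrays of MAP2K1 and NMI siRNA 7 of the 10 genes were also lower by 0.32 or more on the log2 scale, with medians of -0.55 and -0.54, against -0.47 after CDKN2C siRNA and -0.51 after RBL2 siRNA. In RELA siRNA 4 were, and in 11 of the 21 other arrays none was. The 10 genes were chosen on the CDKN2C and RBL2 arrays, so their medians there follow from the choice.

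**Figure D5:**
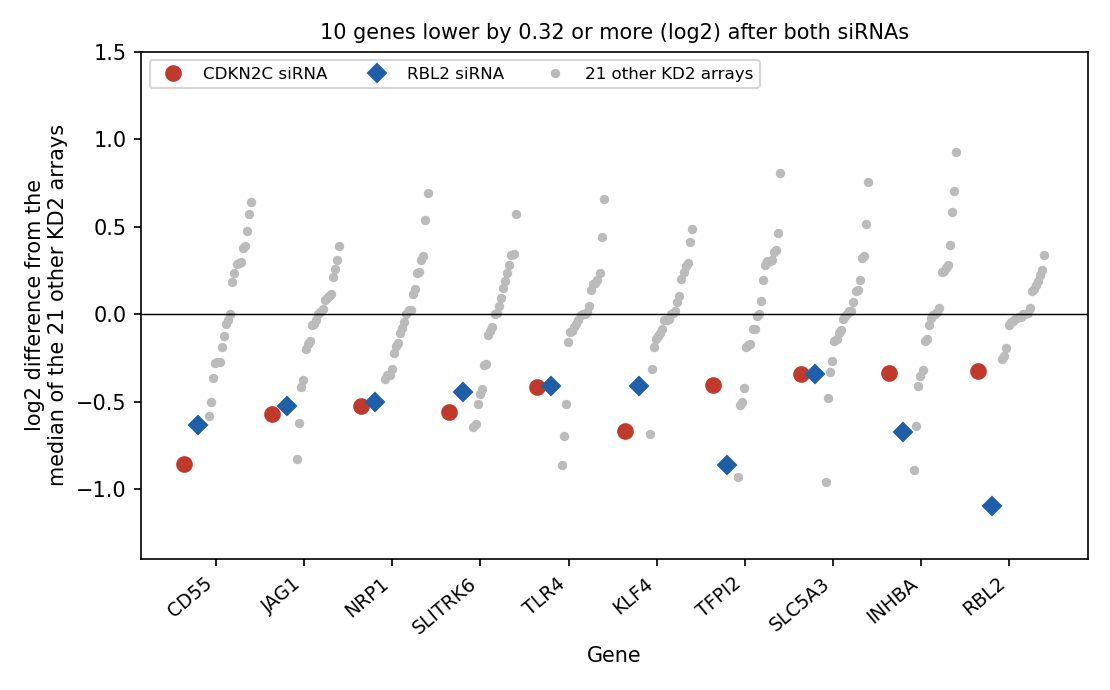
log2 difference (vertical axis) from the median of the 21 other KD2 arrays for the 10 genes lower by 0.32 or more after both siRNAs, 1 point per array, with circles for CDKN2C siRNA, diamonds for RBL2 siRNA and grey points for the 21 other arrays. Both siRNAs lie below all grey points for CD55, NRP1 and RBL2, the last being the target of RBL2 siRNA. Grey points reach as low for the other 7 genes.

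Set directly against the RBL2 array, the CDKN2C array had 15 genes higher and 27 lower by 1.5-fold or more, and 1 and 0 by 2-fold. EFNB2 was at 10.02 after CDKN2C siRNA and 9.01 after RBL2 siRNA, a difference of 1.01, and CXCL8 at 8.81 and 7.93, a difference of 0.87. CLDN12 was at 8.31 after CDKN2C siRNA and 9.27 after RBL2 siRNA (-0.96), OTUD6B at 7.84 and 8.78 (-0.93) and PHTF2 at 8.14 and 8.99 (-0.86). RBL2 itself differed by 0.77 in the direction of its own knockdown. The 17 genes called lower after CDKN2C siRNA other than CD55 lay between -0.23 and 0.16 after RBL2 siRNA, all within the range of the 21 arrays. With 1 array on each side, these differences have no error estimate.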

How the data were processed

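RNA of A375 cells was hybridised to Affymetrix U133 plus 2.0 arrays, and the authors normalised them with RMA, whose version is not given in the sources used here. The values they deposited are linear intensities (5.54 to 32065), which were converted to log2 and not normalised again. The platform table, with symbols updated through RefSeq (GRCh38.p14), gave a single gene to 41097 of the 54675 probe sets, several to 1801 and no name to 11777. The probe set brightest on average over the 45 arrays stood for its gene. Arrays have no read depth, and signal over the noise limit bounds the precision of dim genes.

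Groups came from the sample labels and batches from the study's list of siRNA targets. The members and the 32 gene lists were chosen with earlier results of these data known. Named genes were the targets, the pathway lists, the 10 largest called differences each way per array, genes called in both arrays and up to 4 members of each other list. The planned test of the CDKN2C fall could not be run, since no probe set has that name here. The call rule was tested on simulated data. The software was Python 3.11.15, pandas 2.3.3, numpy 2.4.6, scipy 1.17.1 and matplotlib 3.10.9. Alternatives varied the baseline arrays, the probe set, the noise limit, the fold, the range rule and the centring.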

Additional observations from a re-analysis of the deposited data

Results flagged for a closer look

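Probe set 204159_at, which has no gene name in the annotation used here and so entered no gene comparison, carried the largest fall of any unnamed probe set above noise after CDKN2C siRNA. It stood at 8.64 in that array, against 9.63, 9.84 and 10.15 (lowest, median and highest) in the 21 other KD2 arrays, a log2 difference of -1.20. It was 10.12 after RBL2 siRNA. The identity of the transcript was not tested.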

How the results depend on the processing

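No paired analysis was possible because each targeting siRNA has 1 array and no replicate number, and for the same reason no replicate could be left out. The planned test of the CDKN2C fall and its alternatives were not run, since no probe set carries that name here. The RBL2 fall was smallest at -0.79 (control siRNA arrays 1 and 2) and largest at -1.39 (probe set of largest variance). Causes of the changes below were not tested. Settings that use control siRNA arrays 1 and 2 alone, or the 25% limit alone, were chosen after seeing the data.

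After CDKN2C siRNA, genes higher (main 1) numbered 2 with the mean of the 21 arrays, all other targeting siRNA arrays, without CDK4 and CCND3 siRNA, and by fold alone, 16 against the 3 control siRNA arrays, 9 against control arrays 1 and 2, 0 by the median over probe sets, at 2 times the noise limit and at 2-fold, 5 by the probe set of largest variance, 19 with no noise limit, 56 at 25% and 77 at 25% alone. Genes lower (main 18) numbered 11 by the median over probe sets, 62 with no noise limit, 6 at 2 times the noise limit, 1 at 2-fold, 134 at 25% and 210 at 25% alone. Of the 18, 8 were still called against the 3 control siRNA arrays, 6 against arrays 1 and 2, and 8 by the median over probe sets.

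After RBL2 siRNA, genes higher (main 0) numbered 8 against the 3 control siRNA arrays, 1 against arrays 1 and 2, 5 with no noise limit, 10 at 25% and 17 at 25% alone. Genes lower (main 2) numbered 1 with the other 22 KD2 arrays, at 2 times the noise limit and at 2-fold, 4 against the 3 control siRNA arrays, against arrays 1 and 2 and without MAP2K1, CHEK1, PIK3CB and FOXM1 siRNA, 0 by the median over probe sets, 19 with no noise limit, 8 at 25%, 5 by fold alone and 31 at 25% alone. By the median over probe sets RBL2 was still at -1.27, but as a gene it then lay below the noise limit. CD55 was at -0.56 in that setting, short of 1.5-fold. Genes lower after both (main 1, CD55) numbered 0 by the median over probe sets, at 2-fold and against control siRNA arrays 1 and 2, 3 at 25% and 10 at 25% alone. With the other 22 KD2 arrays the number was 0 by construction, since each of the 2 arrays was then part of the other's range. CD55 left the RBL2 siRNA calls in that setting because it stood at 9.99 there and at 9.77 after CDKN2C siRNA.

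Between the arrays, genes higher after CDKN2C siRNA (main 15) numbered 6 by the median over probe sets, 103 with no noise limit, 5 at 2 times the limit, 1 at 2-fold and 150 at 25%, and genes lower (main 27) 15, 149, 10, 0 and 324 in the same settings. The replication median after CDKN2C siRNA (main 0.08) was 0.30 against the 3 control siRNA arrays. The cytoskeleton median (main 0.13) was 0.21 against the 3 control siRNA arrays, -0.026 against arrays 1 and 2, 0.18 by the median over probe sets and 0.21 by the probe set of largest variance. The ERK output median after RBL2 siRNA (main -0.12) was -0.012 against control siRNA arrays 1 and 2. C5orf15 changed sign after CDKN2C siRNA, at 0.075 by the probe set of largest variance (main -0.72). Of 130 alternative values of 13 named results, 104 differed from their main value by no more than the spread of the other arrays. A further 25 differed from it by more, with the same sign, and 1 changed sign.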

Other observations

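Probe set 230746_s_at, also without a gene name, was low in both arrays, at 8.48 after CDKN2C siRNA and 8.20 after RBL2 siRNA, against 8.17, 9.29 and 10.19 in the 21 other KD2 arrays. The differences were -0.81 and -1.09, and both lay within the range of the other arrays.

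The 16 genes of the ATF4 and CHOP stress response above noise had a median of -0.01 after CDKN2C siRNA and 0.02 after RBL2 siRNA against the KD2 arrays. Set against the 3 control siRNA arrays, averaged, the medians were -0.57 and -0.62, with 0 of 16 genes higher in each. Without control siRNA array 3 they were -0.07 and -0.07, with 6 and 7 of 16 genes higher, so these lower values rest on that 1 array.

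Endoplasmic reticulum chaperones were all above noise (19 of 19), with a median of 0.05 after CDKN2C siRNA and 0.04 after RBL2 siRNA. DNAJB9 was the one member called, after CDKN2C siRNA. In the list of the invasive melanoma state, LOXL2, a collagen cross-linking enzyme, was above all 21 other arrays after CDKN2C siRNA (0.34) and SOX2 below them (-0.66). Each was 1 of 13 members, beside 6.96% of all genes above and 6.44% below. Among the melanocyte lineage genes SOX10 was above all 21 after CDKN2C siRNA (0.28) and MITF after RBL2 siRNA (0.33). Each was 1 of 7 members, beside 6.96% and 2.73% of all genes, and the list medians were 0.01 and 0.08. The extracellular protease inhibitor TIMP1 was below all 21 after RBL2 siRNA (-0.28), as were 0.771% of all genes.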
